A study of Rattus norvegicus with 36 samples.

Results

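The genes described here build and run the machinery that attaches chromosomes to the spindle and moves the cell through mitosis. They are the 55 genes whose symbols match a set of name patterns (Cenp, Bub, Mad1 and Mad2, Aurk, Ska1 to Ska3, Spc24 and Spc25, Ndc80, Nuf2, Ttk, Plk1, Cdc20, Cdca, Ncap, Smc2 and Smc4, Top2a, Mki67 and Foxm1). They come from a table of 12948 rows, and no measured value entered their choice. By main role, 14 belong to the centromere and inner kinetochore, 9 to the outer kinetochore and 8 to the spindle checkpoint and the activation of the anaphase-promoting complex. A further 5 are mitotic kinases or members of the chromosomal passenger complex, 10 are condensins or other chromosome structure genes, and 3 are Cdca2, Cdca3 and Foxm1. The remaining 6 (Cdca4, Cdca7, Cdca7l, Cenpj, Cenpv and Mad2l2) match by name but have their main known role elsewhere.

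The cells were iAM-1, a line of conditionally immortalized atrial heart muscle cells from newborn Wistar rats. A large T antigen, a viral protein that drives cell division, is expressed in them from a transferred construct while doxycycline is in the medium. The groups were D0, proliferating cells kept with 100 ng/ml doxycycline, then D1, D2, D3 and D9 without doxycycline (differentiation), then D10, D11, D12 and D18 after 100 ng/ml had been given back (dedifferentiation). Each of the 9 days had 4 libraries of poly(A) RNA, 36 in all, from 1 line, and the labels do not say whether the 4 were separate cultures. The p-values therefore measure only the spread between these libraries, which may be technical.

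A kinetochore is assembled on each centromere in layers: histone variant and DNA-binding proteins mark the site, an inner network binds them, and outer complexes grip the microtubules. Checkpoint proteins hold back the anaphase-promoting complex until every chromosome is attached, Polo and Aurora kinases set the timing and correct wrong attachments, and condensins with topoisomerase II compact the chromosomes. Most of these genes are transcribed in G2 and mitosis and are held silent in cells that have left the cycle, as heart muscle cells do soon after birth.

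Values are in CPM, counts scaled to an effective library size. Each library held between 14.9 and 43.1 M recovered reads (median 18.5 M), so 1 read was worth 0.0211 to 0.0721 CPM. The T antigen RNA averaged 2956 CPM at D0, 36.0 at D3, 32.0 at D9, 417 at D10, 2465 at D12 and 4950 at D18. All 7 listed atrial markers were present, with a summed level of 85331 to 93303 CPM at D9, against 12471 to 13631 CPM at D0. Of 9 fibroblast markers 6 were listed, and their sum was 40.04 to 47.3 CPM at D9, against 588 to 629 CPM at D0. The lowest of the 6 on average was Pdgfra, with 0.555 CPM at D9 and 0.152 CPM at D0. Of 5 endothelial markers 2 were listed (Kdr with 264 CPM at D9 and 18.8 CPM at D0, and Vwf with 1.01 CPM at D9 and 1.45 CPM at D0), and of 5 macrophage markers 2 were listed, summing to at most 6.79 CPM in any library. The part of such cells in the results below was not tested.

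Nearly all of the genes fell after doxycycline was removed and came back after it was returned. Their summed level averaged 7101 CPM at D0, and it was 4919, 1938 and 904 CPM on the 3 days after removal and 695 CPM at D9. On the 3 days after return it was 767, 2982 and 7902 CPM, and it ended at 10525 CPM. Of the 55 genes, 45 had their lowest day mean at D9, 4 had it at D10, and 46 had their highest at D18. These counts were not made over all rows. In RNA from whole cultures, fewer cells in mitosis and less RNA per cell cannot be told apart.

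**Figure D1:**
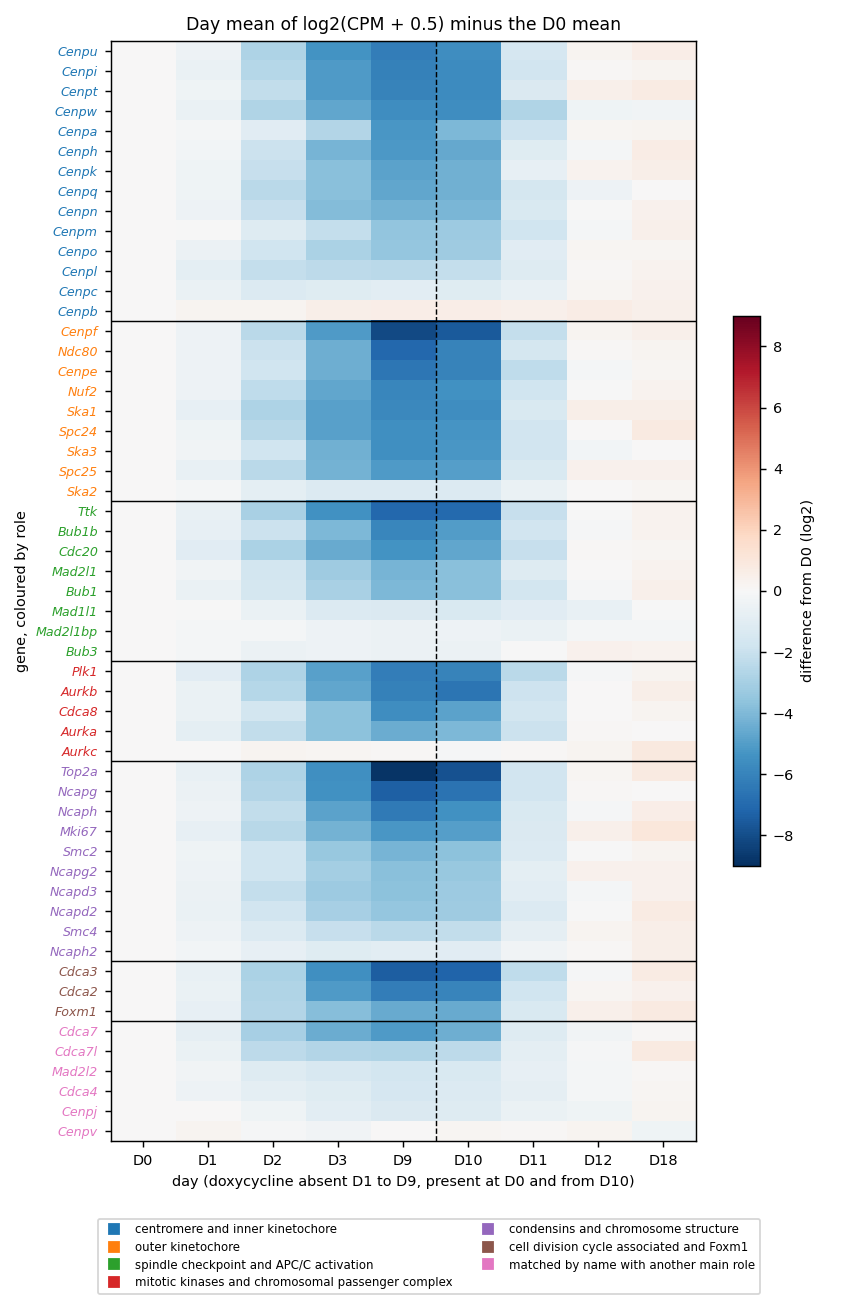
Heat map of the 55 genes (rows, grouped and coloured by role) over the 9 days (columns, in time order), showing the day mean of log2(CPM + 0.5) minus the D0 mean of 4 libraries. Nearly all rows are blue at D9 and D10 (as low as log2 -8.81 for Top2a at D9), and pale again by D12 and D18. Cenpb, Aurkc and Cenpv stay pale throughout.

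Differentiation was examined between D9 and D0. With limma on log2(CPM + 0.5), 52 of the 55 genes were lower at D9 than at D0, where 37.0% of all 12492 rows tested were called lower. Cenpb was higher, where 34.4% of all rows were called higher, and Aurkc and Cenpv were not called. Over all rows 4300 were called higher and 4622 lower here, 2510 and 6764 from TPM values (0 and 53 of the 55), and 5016 and 4035 after quantile normalization (3 and 51 of the 55). The median change of the 55 was log2 -4.79 and that of all rows -0.02. Of the 55, 48 fell at least 2-fold, as did 1855 of all 12492 rows. All 55 passed the filter on low values. The summed fibroblast markers, given above, were lower at D9 as well.

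Within the centromere and inner kinetochore, 13 of 14 genes fell and 1 rose. Cenpa, the histone H3 variant that marks the centromere, measured 0.244, 0.397, 0.567 and 0.487 CPM at D9, against 35.7, 33.0, 32.0 and 34.7 CPM at D0. No D9 library came near a D0 library, and the fall was log2 -5.23 (SE 0.15; limma, adjusted p = 4.2e-25). Cenpu, a subunit of the inner network, had a log2 change of -6.19 (SE 0.20), Cenpi one of -6.06 and Cenpt one of -6.03. All 3 averaged under 0.5 CPM at D9, so their order is set by the added 0.5 CPM. Cenpt links the centromere to the outer Ndc80 complex. Cenpc, the other link between the centromere and the outer kinetochore, changed by only log2 -0.94 (SE 0.10; limma, adjusted p = 9.1e-10). It measured 29.0, 34.6, 35.6 and 31.7 CPM at D9, against 56.8, 64.9, 64.2 and 66.7 CPM at D0.

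Cenpb, which binds a repeated DNA box in centromeric satellites, went the other way. It had 172, 214, 166 and 163 CPM at D9, against 145, 124, 136 and 80.5 CPM at D0, so every D9 library lay above every D0 library. The difference was log2 0.58 (SE 0.14; limma, adjusted p = 3.2e-04). In the TPM table it was 0.25 and not called (limma, adjusted p = 0.0721). There the median of all genes lay at -0.35, and relative to that median Cenpb was higher by 0.60, against 0.61 in the CPM table.

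Cenpw, the partner of Cenpt, averaged 0.0535 CPM at D9 and Ska1 averaged 0.0658 CPM, the lowest levels of the 55. These means rest on too few reads to be ranked. The deposited values carry an offset of 0.5 read. The 0.0348, 0.0361, 0.027 and 0.116 CPM of Cenpw at D9 therefore stood for 0, 0, 0 and 2 recovered reads. At D0 it had 26.6, 23.6, 26.3 and 29.2 CPM. The fitted change of -5.60 (SE 0.19) depends on the added 0.5 CPM, as it does for all 12 genes that averaged under 0.5 CPM at D9. Cenpw, Ska1 and Cdca7l were the only genes of the 55 with 0 reads in any library.

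The 9 outer kinetochore genes all fell, with a median of log2 -5.84. Cenpf, a large coiled-coil protein of the outer kinetochore and nuclear matrix, measured 0.662, 0.974, 0.675 and 0.209 CPM at D9, against 281, 314, 273 and 322 CPM at D0. The fall of log2 -8.09 (SE 0.19; limma, adjusted p = 2.3e-27) was exceeded among the 55 by Top2a alone on the log2(CPM + 0.5) scale. Ndc80, the microtubule-binding subunit of the complex of the same name, had 0.453, 0.18, 0.567 and 0.394 CPM at D9, against 113, 125, 116 and 121 CPM at D0, and changed by log2 -7.07 (SE 0.16). Its partners in the complex fell as well, with changes of log2 -5.87 for Nuf2, -5.55 for Spc24 and -5.08 for Spc25. The motor protein Cenpe changed by log2 -6.50 (SE 0.14).

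The 3 Ska genes, whose products form a complex that keeps kinetochores on shrinking microtubules, differed in size of change. Ska2 kept 10.8, 14.5, 9.86 and 10.9 CPM at D9, against 26.7, 27.6, 26.2 and 32.0 CPM at D0 (log2 -1.26, SE 0.12). Ska1 was left with 0.105, 0.108, 0.027 and 0.0232 CPM at D9, which is 1, 1, 0 and 0 reads, against 29.7, 34.5, 30.7 and 32.2 CPM at D0. Ska3 changed by log2 -5.50 (SE 0.16).

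All 8 checkpoint and anaphase genes fell, over a range of log2 -7.04 to -0.50. The checkpoint kinase Ttk, which recruits the other checkpoint proteins to the kinetochore, had the largest of these changes on the log2(CPM + 0.5) scale (-7.04, SE 0.18). Bub1, the kinase that docks there next, had 10.1, 8.91, 9.7 and 9.35 CPM at D9, against 150, 171, 166 and 183 CPM at D0 (log2 -4.07, SE 0.16). Its binding partner Bub3 had 58.4, 60.7, 56.7 and 56.7 CPM at D9, against 84.3, 81.7, 78.8 and 84.1 CPM at D0. That was the smallest called fall of the 55, at log2 -0.50 (SE 0.07; limma, adjusted p = 1.3e-07), and the D9 and D0 libraries did not overlap. Cdc20, the activator of the anaphase-promoting complex that the checkpoint restrains, changed by log2 -5.35 (SE 0.12) and Mad2l1, which holds Cdc20, by -4.22 (SE 0.13). Mad1l1, the kinetochore anchor of Mad2l1, changed by log2 -1.28 (SE 0.15), and Mad2l1bp, which disassembles the checkpoint complex, by -0.55 (SE 0.13).

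Among the 5 kinase and passenger genes, Plk1, Aurka, Aurkb and Cdca8 fell and Aurkc was not called. Plk1, the Polo kinase of mitotic entry and spindle assembly, measured 1.29, 1.12, 1.16 and 1.18 CPM at D9, against 125, 130, 128 and 118 CPM at D0 (log2 -6.22, SE 0.15). Aurkb, the Aurora kinase of the passenger complex, changed by log2 -6.07 (SE 0.19), its partner Cdca8 (borealin) by -5.59 (SE 0.12), and Aurka, the Aurora kinase of the spindle poles, by -4.48 (SE 0.15). Aurkc, a relative known mainly from germ cells, had 7.98, 8.04, 5.05 and 8.23 CPM at D9, against 6.54, 5.34, 7.81 and 6.8 CPM at D0. Those libraries overlapped, and the difference was log2 0.12 (SE 0.16; limma, adjusted p = 0.49). After quantile normalization Aurkc was called higher (0.43; limma, adjusted p = 0.0129). In the TPM table the sign was turned (-0.20). There the median of all genes lay at -0.35, and relative to that median Aurkc was higher by 0.15, as in the CPM table (0.15).

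All 10 condensin and chromosome structure genes fell. Top2a, the topoisomerase that untangles sister chromosomes, was left with 1.36, 1.05, 2.24 and 1.37 CPM at D9, against 837, 903, 846 and 924 CPM at D0. Its fall of log2 -8.81 (SE 0.20; limma, adjusted p = 7.4e-28) was the largest of all 12492 rows on the log2(CPM + 0.5) scale. Mki67, which coats mitotic chromosomes and is widely used as a proliferation marker, changed by log2 -5.26 (SE 0.17). Of the condensin I subunits, Ncapg changed by log2 -7.32, Ncaph by -6.38 and Ncapd2 by -3.51. Of the condensin II subunits, Ncapg2 changed by log2 -3.73, Ncapd3 by -3.68 and Ncaph2 by only -0.96 (SE 0.08). Ncaph2 kept 74.0, 90, 70.7 and 70.9 CPM at D9, against 152, 146, 150 and 147 CPM at D0. Smc2 and Smc4, the core ATPase pair shared by both condensins, changed by log2 -4.16 and -2.45.

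Foxm1, the transcription factor that activates many genes of G2 and mitosis, had 4.35, 3.14, 3.7 and 3.5 CPM at D9, against 93.0, 98.8, 94.3 and 96.9 CPM at D0 (log2 -4.54, SE 0.16). Cdca3, which triggers destruction of the mitosis-blocking kinase Wee1, had 0.314, 0.83, 0.189 and 0.209 CPM at D9, against 144, 150, 145 and 139 CPM at D0 (log2 -7.41, SE 0.22). Cdca2, a phosphatase-targeting protein of mitotic chromosomes, changed by log2 -6.22 (SE 0.20). In all 3 genes every D9 library lay below every D0 library.

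The 6 genes matched by name with another main role had a median of log2 -1.59. Cdca7, a partner of the chromatin remodeler Hells, changed by log2 -5.08 (SE 0.17) and its relative Cdca7l by -2.69 (SE 0.20). Mad2l2, a subunit of a DNA damage-bypass polymerase, changed by log2 -1.64, the transcription cofactor Cdca4 by -1.55 and the centriole-building protein Cenpj by -1.28. Cenpv had 5.05, 5.16, 5.81 and 5.13 CPM at D9, against 4.62, 5.38, 5.44 and 5.09 CPM at D0, and these overlapped (log2 0.04, SE 0.11; limma, adjusted p = 0.76). In the TPM table Cenpv was lower (-0.28), and relative to the median of all genes there it differed by 0.06. After quantile normalization it was higher (0.41; limma, adjusted p = 0.0012).

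**Figure D2:**
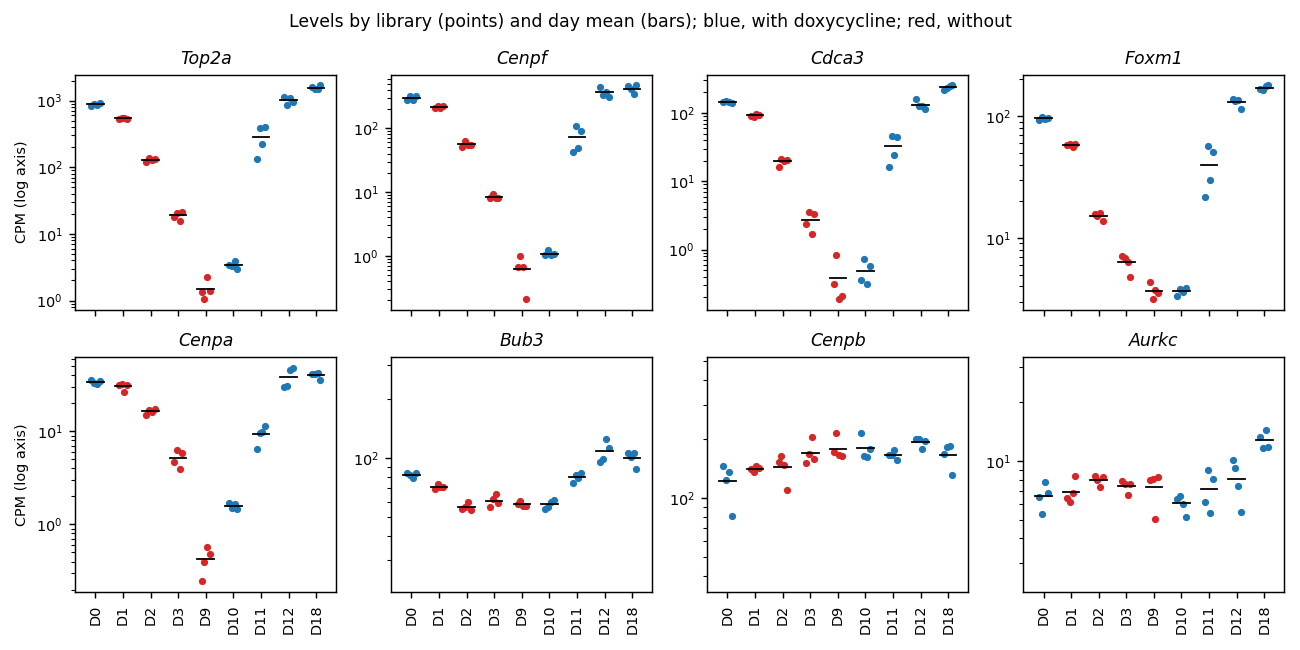
CPM on a log axis for 8 genes in each library (points) and the mean of each day (bars), in time order; red marks days without doxycycline and blue days with it. Top2a, Cenpf, Cdca3, Foxm1 and Cenpa drop by D9 and return by D12, Bub3 moves little (56.7 to 60.7 CPM at D9, against 78.8 to 84.3 at D0), and Cenpb and Aurkc show no such drop.

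Per transcript length, the order of the genes at D9 differed from that at D0. In TPM, Cenpb stood first at D9 with 166 ± 15.5, Ncaph2 followed with 63.7 ± 5.19, and Smc4 and Bub3 came next with 41.6 ± 2.92 and 40.3 ± 0.502 (SD, n = 4). Top2a was 41st at D9 with 0.511 ± 0.187 TPM. At D0 Top2a stood first with 374 ± 20.8 TPM, Smc4 followed with 288 ± 23.7, and Mki67 and Cdca3 had 234 ± 19.9 and 233 ± 7.03 TPM, which did not differ beyond their spread. Cenpb was 10th at D0 with 142 ± 32.6 TPM and Bub3 was 25th with 71.9 ± 2.64 TPM.

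Promoter sequences are shown because genes of mitosis are known to share 2 short promoter elements. The CHR (cell cycle genes homology region, letters TTTGAA, or TTCGAA in a variant form) is bound by the DREAM and MuvB complexes, and the CCAAT box is bound by NF-Y. RefSeq promoters of the rat assembly GRCr8, from 250 bases before to 50 after the start, were found for 51 of the 55 genes, and Cenpt, Aurkb, Cdca2 and Foxm1 had none in the table. TTTGAA on either strand was present in 25 of the 51 (49.0%) and in 6140 of all 33469 promoters (18.3%). The 33469 were not limited to genes measured here, so these shares do not compare like sets. The palindrome TTCGAA was present in 6 of the 51 (11.8%) and in 1.69% of all. CCAAT on either strand was present in 28 of the 51 (54.9%) and in 37.5% of all, and a CHR form together with CCAAT in 17 (33.3%) and in 7.95% of all. In 2 of the genes, Cdca8 and Mki67, the CHR and CCAAT letters overlapped.

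Among the 44 of these genes that were at least 2-fold lower at D9, 24 held TTTGAA (54.5%), and among the other 7, 1 did (14.3%). The variant TTCGAA stood in 4 of the 44 and 2 of the other 7. Either form stood in 26 of the 44 (59.1%) and 3 of the other 7 (42.9%). CCAAT stood in 25 of the 44 (56.8%) and 3 of the other 7 (42.9%). A CHR form and CCAAT both stood in 16 of the 44 (36.4%) and 1 of the other 7 (14.3%). Such matches are descriptions of letters and show no binding. The shares of the 44 and the 7 were not tested against each other. Among the 55 genes, Cdc20, the checkpoint target, had the largest log2 fall at D1, and Top2a had the largest at D9. Cenpa had the smallest share of its fall reached by D3, and Cenpb was higher at D9. The full promoters of these genes are given below. They are written 5′ to 3′ on the gene's strand with the letters of both CHR forms and of CCAAT in capitals, also where they lie on the other strand (then read as TTCAAA or ATTGG). Their position is given as GRCr8 coordinates.
Cdc20, chr5:137255750-137256049, strand -: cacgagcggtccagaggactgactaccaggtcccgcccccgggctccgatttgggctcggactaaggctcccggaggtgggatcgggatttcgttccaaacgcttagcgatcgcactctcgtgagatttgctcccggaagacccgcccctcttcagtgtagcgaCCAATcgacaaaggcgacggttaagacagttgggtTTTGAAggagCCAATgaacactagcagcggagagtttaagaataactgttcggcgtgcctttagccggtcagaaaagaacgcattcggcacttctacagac
Top2a, chr10:84473044-84473343, strand -: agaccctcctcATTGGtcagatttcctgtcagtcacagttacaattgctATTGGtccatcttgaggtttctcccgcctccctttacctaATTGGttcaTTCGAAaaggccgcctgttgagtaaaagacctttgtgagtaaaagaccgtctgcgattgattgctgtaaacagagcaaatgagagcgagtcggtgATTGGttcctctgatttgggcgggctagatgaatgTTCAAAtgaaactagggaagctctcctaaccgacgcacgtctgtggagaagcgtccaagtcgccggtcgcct
Cenpa, chr6:31431503-31431802, strand -: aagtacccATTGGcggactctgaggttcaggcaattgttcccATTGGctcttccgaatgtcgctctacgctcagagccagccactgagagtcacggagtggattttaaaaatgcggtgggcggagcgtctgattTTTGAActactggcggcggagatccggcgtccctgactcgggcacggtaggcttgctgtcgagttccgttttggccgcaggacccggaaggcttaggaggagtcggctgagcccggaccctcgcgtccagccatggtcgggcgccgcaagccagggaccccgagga
Cenpb, chr3:138852747-138853046, strand -: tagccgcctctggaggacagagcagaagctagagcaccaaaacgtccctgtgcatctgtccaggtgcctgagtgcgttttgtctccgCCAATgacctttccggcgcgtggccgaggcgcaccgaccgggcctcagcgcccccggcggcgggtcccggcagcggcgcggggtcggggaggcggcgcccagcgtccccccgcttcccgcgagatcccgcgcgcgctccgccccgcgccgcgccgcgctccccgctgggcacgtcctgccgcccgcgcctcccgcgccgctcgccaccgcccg

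In the Cdc20 promoter a TTTGAA began at base -51 from the start, between CCAAT boxes at -86 and -41. Top2a held a TTCAAA at -22 and a TTCGAA at -152, Cenpa a TTTGAA at -116, and Cenpb a CCAAT at -163 with neither CHR form. Shorter stretches around the CHR letters nearest to the start follow for genes with a fall of more than log2 6 (Plk1, Cenpf, Ttk, Ncapg, Ndc80 and Cenpi, besides Top2a above) and for genes that fell by less than log2 1 yet held the letters (Bub3, Ncaph2 and Cenpc). They were chosen with their changes known.
Plk1, chr1:186147632-186147681, strand +: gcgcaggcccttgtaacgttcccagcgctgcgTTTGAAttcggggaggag
Cenpf, chr13:103760867-103760916, strand -: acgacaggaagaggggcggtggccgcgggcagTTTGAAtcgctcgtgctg
Ttk, chr8:93634611-93634660, strand +: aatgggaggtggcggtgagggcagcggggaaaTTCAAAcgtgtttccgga
Ncapg, chr14:69645452-69645501, strand -: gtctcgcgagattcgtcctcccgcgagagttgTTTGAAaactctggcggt
Ndc80, chr9:118887480-118887528, strand -: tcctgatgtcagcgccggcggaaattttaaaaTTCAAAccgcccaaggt
Cenpi, chrX:101809578-101809627, strand +: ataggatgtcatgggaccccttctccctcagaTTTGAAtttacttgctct
Bub3, chr1:195760439-195760488, strand +: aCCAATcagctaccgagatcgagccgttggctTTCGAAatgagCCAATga
Ncaph2, chr7:122302481-122302530, strand +: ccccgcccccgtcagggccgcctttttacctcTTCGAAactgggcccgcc
Cenpc, chr14:22342907-22342956, strand +: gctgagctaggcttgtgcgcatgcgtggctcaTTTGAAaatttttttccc

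The letters nearest to the start began between -49 and 34 in the genes with the large falls, and at -61, -66 and -176 in Bub3, Ncaph2 and Cenpc. Genes outside these sets also held them farther out, as at -94 in Cdca8 (log2 -5.588) and -103 in Smc2 (-4.158). Others held them close in, as at 22 in Cenpm (-3.565). Position was not tested against the size of the fall. In Bub3 and Ncaph2 they were the variant TTCGAA. The stretches were picked for holding the letters: of the 11 genes with such large falls and a promoter in the table, 7 held a CHR form and 4 did not (Cdca3, Cenpe, Ncaph and Cenpu).

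Related genes, of which only some act as partners, often changed by different amounts. In 14 pairs, the log2 ratio of the 2 genes of (CPM + 0.5) was compared between days by a two-sided exact permutation test of 4 libraries against 4, whose smallest possible p is 0.0286. Over both phases, 25 of 28 tests passed an adjusted p of 0.05, 12 of 14 at D9 against D0 and 13 of 14 at D18 against D9, and each of those that passed had the adjusted p of 0.032. The 2 comparisons share the D9 libraries. The pairs were chosen with earlier results of these data known. Pairs of other genes were not tested, so the counts are not shown to be particular to these genes. Of all single rows, 34.4% were called higher and 37.0% lower at D9 against D0.

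Between the condensins the contrast was large for Ncaph, of condensin I, over Ncaph2, of condensin II. The log2 ratio was -5.52 ± 0.13 at D9 and -0.10 ± 0.05 at D0 (SD, n = 4), a difference of the means of -5.42 without overlap of the libraries (exact permutation test, adjusted p = 0.032). For Ncapg over Ncapg2 the difference was -3.58, and for Smc2 over Smc4 it was -1.71. For Ncapd2 over Ncapd3 it was 0.17 (exact permutation test, adjusted p = 0.237), and the D9 and D0 libraries overlapped.

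At the centromere and checkpoint, Cenpa over Cenpb changed by log2 -5.81, Bub1 over Bub3 by -3.57, Mad2l1 over Mad1l1 by -2.94, and Mad2l1 over Mad2l2 by -2.58. Bub1 over its paralog Bub1b changed by 1.81 and Aurka over Aurkb by 1.60, so that Aurka exceeded Aurkb at D9 (log2 ratio 0.67 ± 0.53) and lay below it at D0 (-0.92 ± 0.06), not corrected for length. Cenpe over Cenpf changed by 1.58, Ndc80 over Nuf2 by -1.20 and Cdca7 over Cdca7l by -2.39. These differences depend on the added 0.5 CPM where a gene is near or under that level at D9, as Ndc80, Cdca7, Cdca7l, Cenpf and Cenpa are. With 0.1 CPM added they were 2.07 for Cenpe over Cenpf, -1.61 for Ndc80 over Nuf2, -2.11 for Cdca7 over Cdca7l and -6.64 for Cenpa over Cenpb, and all passed the same test. Spc24 over Spc25 differed by -0.47 with overlapping libraries (exact permutation test, adjusted p = 0.0615).

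**Figure D3:**
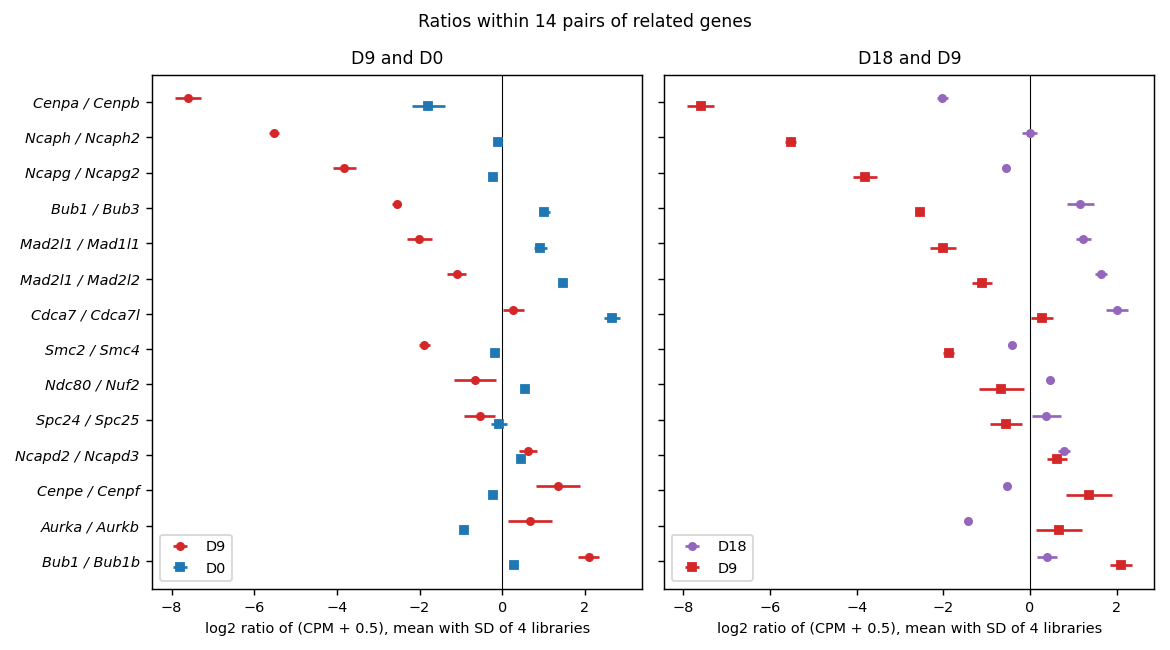
Log2 ratio of (CPM + 0.5) of paired genes (mean with SD of 4 libraries), at D9 and D0 on the left and at D18 and D9 on the right. The ratios of Cenpa to Cenpb and of Ncaph to Ncaph2 stand lowest at D9 (-7.60 and -5.52) and are near their D0 values again at D18, and that of Ncapd2 to Ncapd3 hardly moves.

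Dedifferentiation was examined between D18 and D9. With limma, 53 of the 55 genes were higher at D18, where 33.6% of all rows were called higher, and Cenpv was lower, where 32.5% of all rows were called lower. Cenpb was not called. The median of the 55 was log2 5.26 and that of all rows 0.00 to 2 decimals. Of the 55, 50 rose at least 2-fold, as did 1507 of all 12492 rows. Over all rows the TPM table called 6723 higher and 2004 lower and quantile normalization 3388 and 5036, against 4200 and 4059 here, while 53 and 52 of the 55 were higher in those fits. The summed fibroblast markers were 169 to 185 CPM at D18, against 40.04 to 47.3 CPM at D9. The D9 libraries are the same as in the comparison with D0, so the 2 sets of changes are not independent.

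Top2a again changed most, with 1625, 1468, 1492 and 1701 CPM at D18, against 1.36, 1.05, 2.24 and 1.37 CPM at D9 (log2 9.64, SE 0.20; limma, adjusted p = 6.9e-29). Cenpf rose by 8.57 (SE 0.19), Cdca3 by 8.12 (SE 0.22), Ttk by 7.38 (SE 0.18) and Ndc80 by 7.33 (SE 0.16). The smallest rises were Mad2l1bp (0.36, SE 0.13; limma, adjusted p = 0.014), Aurkc (0.77, SE 0.16) and Bub3 (0.78, SE 0.07). Aurkc had 13.2, 11.6, 14.3 and 11.7 CPM at D18, against 7.98, 8.04, 5.05 and 8.23 CPM at D9, with no overlap. Cenpv had 3.28, 4.02, 4.3 and 3.65 CPM at D18, against 5.05, 5.16, 5.81 and 5.13 CPM at D9 (log2 -0.43, SE 0.11; limma, adjusted p = 0.0012). In the TPM table that fall was -0.11 and not called, and relative to the median of all genes there (0.34) it was -0.45. Cenpb had 167, 182, 184 and 131 CPM at D18, against 172, 214, 166 and 163 CPM at D9 (log2 -0.11, SE 0.14; limma, adjusted p = 0.49).

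The end of the cycle was compared with its start, D18 with D0. With limma, 28 of the 55 genes were higher at D18 (28.8% of all rows were called higher), 1 was lower (23.2% of all rows) and 26 were not called, with a median of log2 0.34 against 0.06 over all rows. Among them were 8 of 10 condensin and chromosome structure genes and 8 of 14 inner kinetochore genes, and no difference between roles was tested. The calls rest on a spread per gene fitted over all 9 days, so a gene not called is not shown to be back at its D0 level. In 40 of the 55 genes every D18 library lay above every D0 library, and in 2 every one lay below. That count was not made over all rows. The differences were small, and only Mki67 reached 2-fold, where 461 of all 12492 rows were called at least 2-fold higher. The T antigen RNA was higher too, with 4578 to 5474 CPM at D18, against 2732 to 3098 CPM at D0. Its part in the difference was not tested.

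Mki67 had 1997, 1863, 1767 and 2354 CPM at D18, against 933, 1046, 878 and 1013 CPM at D0 (log2 1.04, SE 0.17; limma, adjusted p = 4.1e-06). Aurkc (0.90, SE 0.16), Top2a (0.84, SE 0.20), Foxm1 (0.83, SE 0.16) and Spc24 (0.81, SE 0.21) followed. Foxm1 had 166, 163, 176 and 179 CPM at D18, against 93.0, 98.8, 94.3 and 96.9 CPM at D0. In each of these 5 genes every D18 library lay above every D0 library. Cenpv was lower (-0.39, SE 0.11; limma, adjusted p = 0.0042). The smallest called rises were Cenpj (0.27), Bub3 (0.28), Spc25 (0.36) and Cenpc (0.36). Aurka (0.01), Mad1l1 (-0.01) and Cenpq (0.03) were nearest to their D0 level, and Cenpw had -0.35 without a call (SE 0.19; limma, adjusted p = 0.13).

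Between 24 and 28 genes were called in that comparison when any 1 library of D0 or D18 was left out. The calls of Cenpf, Spc25, Bub1 and Cenpj were each lost without 1 or more single libraries, and that of Cenpb (0.47) without D0 library 4, where it had 80.5 CPM (0.29; limma, adjusted p = 0.051). A fit of only the 2 days called 46 genes, 44 higher and 2 lower.

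**Figure D4:**
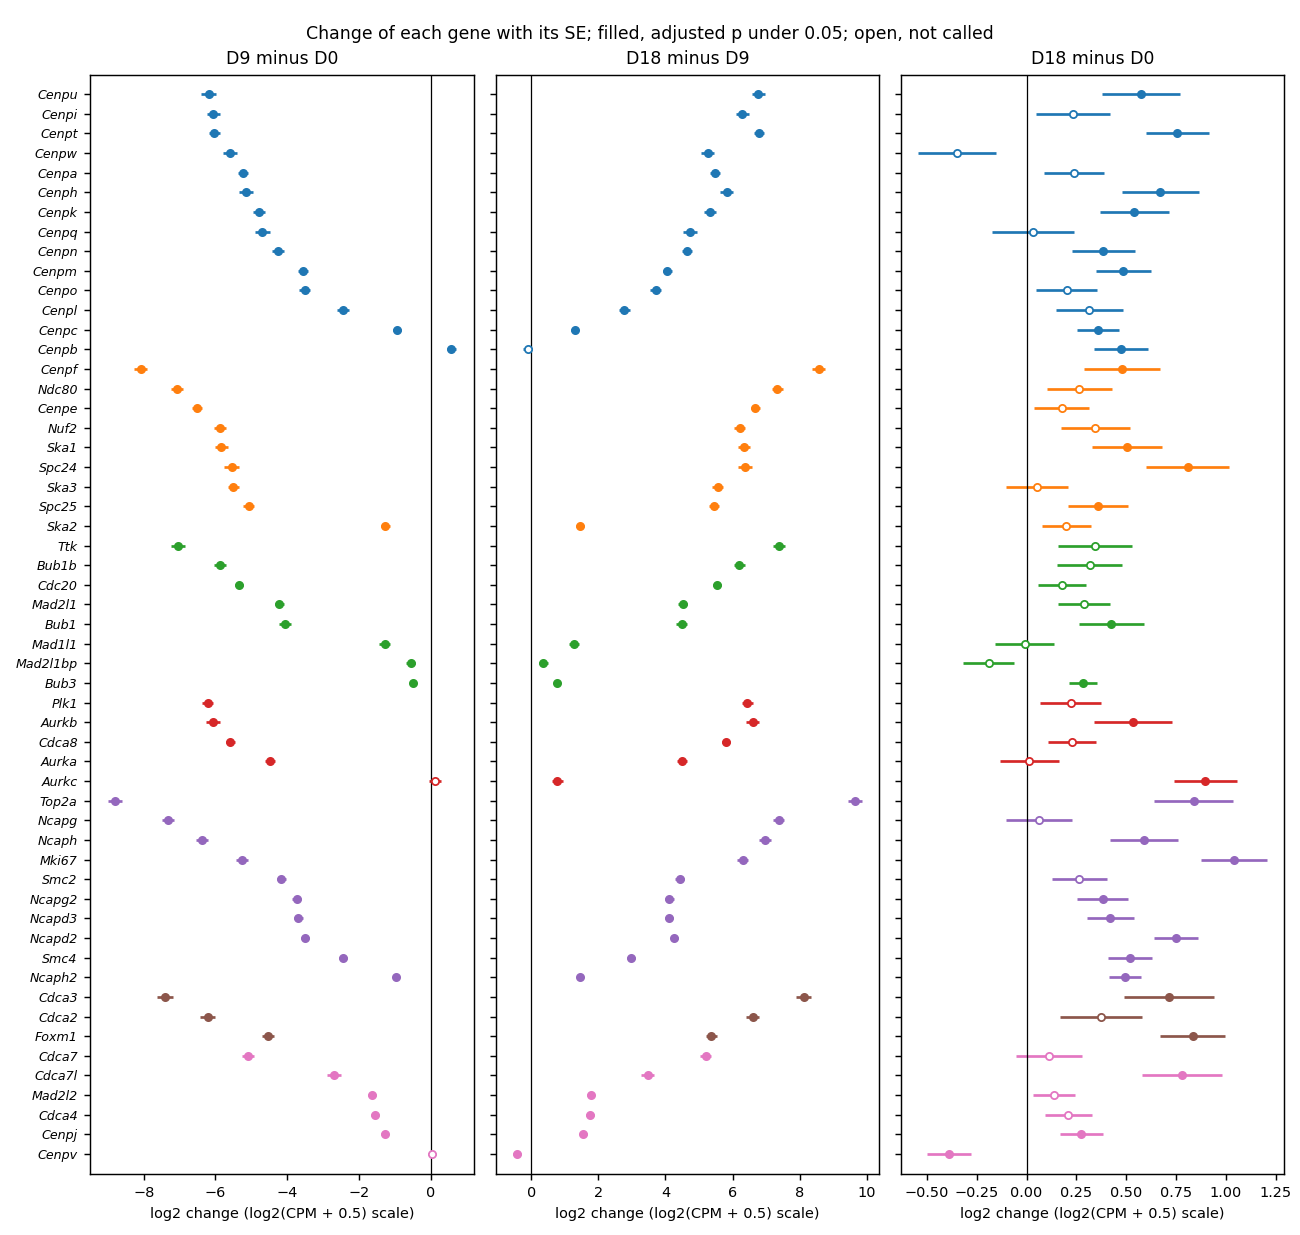
Log2 change with its SE for each of the 55 genes in D9 minus D0, D18 minus D9 and D18 minus D0 (panels left to right, each with its own axis range, coloured by role as in the heat map); filled points have a limma adjusted p under 0.05 and open points do not. In D9 minus D0 points reach -8.81, in D18 minus D9 they reach 9.64, and in D18 minus D0 all lie between -0.39 and 1.04.

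At D12, 3 days after doxycycline came back, the genes stood close to D0. With limma, 9 were higher (27.7% of all rows were called higher), 2 were lower (23.8% of all rows) and 44 were not called, so the shares called were below those of all rows. The median was log2 0.04 for the 55 and for all rows alike. The 9 were Cenpb (0.70), Ska1 (0.56), Cenpt (0.45), Mki67 (0.45), Foxm1 (0.44), Bub3 (0.39), Ncapg2 (0.37), Spc25 (0.36) and Cenpv (0.27), and the 2 lower were Mad1l1 (-0.68) and Cenpj (-0.38). In the TPM table, where the median of all genes was -0.11, the split was 2 higher and 9 lower (2142 and 4172 of all rows, against 3464 and 2979 here). Without D0 library 1, or without D12 library 3, 7 genes were called, and Foxm1, Mki67, Cenpv, Spc25 and Ncapg2 each lost their call without 1 or more single libraries.

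After 1 day without doxycycline, at D1 against D0, 31 of the 55 were lower and none higher by limma, where 4.39% of all rows were called lower and 7.91% higher. The median was log2 -0.47. Cdc20 and Plk1 alone of the 55 fell 2-fold, where 17 of all 12492 rows did. Cdc20 had 82.9, 79.9, 90 and 82.2 CPM at D1, against 170, 174, 171 and 169 CPM at D0 (log2 -1.03, SE 0.12; limma, adjusted p = 2.4e-07). Plk1 had 61.9, 62.2, 60.7 and 61.4 CPM at D1, against 125, 130, 128 and 118 CPM at D0 (-1.02, SE 0.15). Cenpl, an inner network subunit, followed with -0.90, Aurka with -0.89 and Cdca7 with -0.83. Of the condensin and chromosome structure genes 9 of 10 were called, with a median of log2 -0.48. Of the centromere and inner kinetochore genes 5 of 14 were called, with a similar median of -0.42. Calls used a spread per gene fitted over all 9 days, and the difference in calls was not tested. Cenpa (-0.15), Cenpm (-0.06) and Mad1l1 (-0.02) were not called. That count was 19 without D0 library 4, 20 without D1 library 1 and 20 without the D1 library that has no number, and it was 47 in a fit of only those 2 days.

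The steepest steps followed. At D2 against D1, 52 of 55 were lower by limma and none higher (20.0% of all rows were called lower and 21.6% higher). The median was log2 -1.51, and 40 genes were at least 2-fold lower, as were 575 of all 12492 rows. The strongest were Cenpu (-2.33), Ttk (-2.29) and Cdca3 (-2.22). At D3 against D2, 44 were lower and none higher (9.72% and 2.92% of all rows), with a median of -1.64, led by Cenpt (-2.88), Ncapg (-2.79) and Top2a (-2.75). At D9 against D3, 43 were lower (25.0% of all rows) and Cenpv was higher (18.4% of all rows), with a median of -0.84. The largest late falls were Top2a (-3.29), Cenpf (-3.02), Ndc80 (-2.69) and Cenpa (-2.62).

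Return was slow to start. At D10 against D9, 1 day after doxycycline was given back, 12 of the 55 were higher by limma and none lower, where 2.40% of all rows were called higher and 1.26% lower, and the median was log2 0.30. Cenpa led, with 1.7, 1.51, 1.66 and 1.47 CPM at D10, against 0.244, 0.397, 0.567 and 0.487 CPM at D9 (log2 1.19, SE 0.15; limma, adjusted p = 3.0e-06). Ndc80 followed with 1.09, 1.09, 1.8 and 1.47 CPM at D10, against 0.453, 0.18, 0.567 and 0.394 CPM at D9 (1.05, SE 0.16). Top2a (0.99), Ncaph (0.94), Bub1b (0.83), Cdca8 (0.75), Cdca7 (0.71), Ncapg (0.70), Cdc20 (0.70), Cenpe (0.50), Mad2l1 (0.49) and Ncapd3 (0.40) made up the rest. Foxm1 was at 3.32, 3.81, 3.59 and 3.86 CPM at D10, against 4.35, 3.14, 3.7 and 3.5 CPM at D9 (-0.00, SE 0.16; limma, adjusted p = 0.99). Aurkb was not called either (-0.48, SE 0.19; limma, adjusted p = 0.18). With a pseudocount of 2, or a fit of only those 2 days, 6 genes were called, and 8 with edgeR on the recovered reads.

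Most of the set rose in the next 2 days. At D11 against D10, 50 were higher by limma and none lower (15.7% and 9.84% of all rows). The median was log2 2.77, and 42 genes were at least 2-fold higher, as were 482 of all 12492 rows. Top2a rose by 6.06, Cenpf by 5.42 and Cdca3 by 4.96. At D12 against D11, 50 were again higher and none lower (18.7% and 21.3% of all rows), with a median of 1.47, led by Cenpf (2.42), Cenpw (2.37) and Plk1 (2.31). At D18 against D12, 23 were higher (25.5% of all rows) and Cenpv was lower (23.5% of all rows), with a median of 0.30, and the TPM table called 37.

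The shares of all rows in these steps depend on the scaling, and the split of the 55 did not turn with it. Over all rows at D11 against D10, 1963 were higher and 1229 lower here, 1644 and 1738 with median-of-ratios scaling (50 and 0 of the 55), and 1476 and 1896 after quantile normalization (49 and 2 of the 55). At D12 against D11 the numbers were 2337 and 2658 here and 3266 and 1636 from TPM values (53 and 0 of the 55). Before D9, TPM values gave 560 higher and 955 lower at D1 against D0 (988 and 549 here), 1096 and 4325 at D2 against D1 (2693 and 2498 here) and 1604 and 4208 at D9 against D3 (2294 and 3125 here). Quantile normalization gave 861 and 810 at D1 against D0 and 691 and 903 at D3 against D2 (365 and 1214 here). After D9, TPM values gave 528 and 87 at D10 against D9 (300 and 158 here) and 5084 and 1722 at D18 against D12 (3182 and 2934 here).

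The D11 libraries stood apart from each other. The summed level of the 55 genes was 1966 CPM in library 1, 3732 in library 2, 2545 in library 3 and 3687 in library 4. In 49 of the 55 genes libraries 1 and 3 were both below libraries 2 and 4. The share of all rows with that order was not counted, so it may not be particular to these genes. Top2a had 131, 393, 220 and 397 CPM in libraries 1 to 4, and Foxm1 had 21.6, 56.7, 30.0 and 50.9 CPM. The T antigen RNA in the same libraries was 1705, 2361, 2035 and 2420 CPM, and its part in the spread was not tested. Without libraries 1 and 3 the calls at D11 against D10 were 50 with a median of 3.14, and without libraries 2 and 4 they were 48 with a median of 2.35.

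The order of events was described by the share of each gene's own log2 change that had been reached on a day. This was done for the 48 genes with at least a 2-fold change in both phases, beside the 1143 genes of the whole table that were lower at D9 and higher at D18 by the same rule. The median shares of the fall were 9.91% at D1, 44.2% at D2 and 80.6% at D3 for the 48, and 12.4%, 52.1% and 81.8% for the 1143. Of the gain, the 48 had reached 7.34% at D10, 66.0% at D11 and 93.6% at D12, and the 1143 had reached 6.13%, 50.4% and 85.1%. No test was made of these shares, and D9 enters both.

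Cenpa was late in the fall and led the return at D10 only. It had covered 2.93% of its fall at D1, 19.6% at D2 and 49.9% at D3, and 21.7% of its gain at D10, the highest share of the 48 on that day. At D11 it had reached 62.2% and at D12 98.4%, where the medians of the 48 were 66.0% and 93.6%. Its D9 values stood for 3, 5, 10 and 10 reads. Cenpa had 31.3, 32.1, 26.6 and 31.8 CPM at D1, 15.1, 17.1, 16.1 and 17.4 CPM at D2, and 4.71, 6.3, 3.92 and 5.91 CPM at D3. Cenpm, another inner kinetochore subunit, was similar in the fall (59.4% at D3) but had reached 44.0% of its gain at D11. Cenpl had covered 36.7% at D1 and 88.7% at D2, and Cdca7l 88.0% at D2. Mad1l1 had gained only 22.8% at D11 and 47.3% at D12, and Cenpj 58.0% at D12, the lowest shares on that day.

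**Figure D5:**
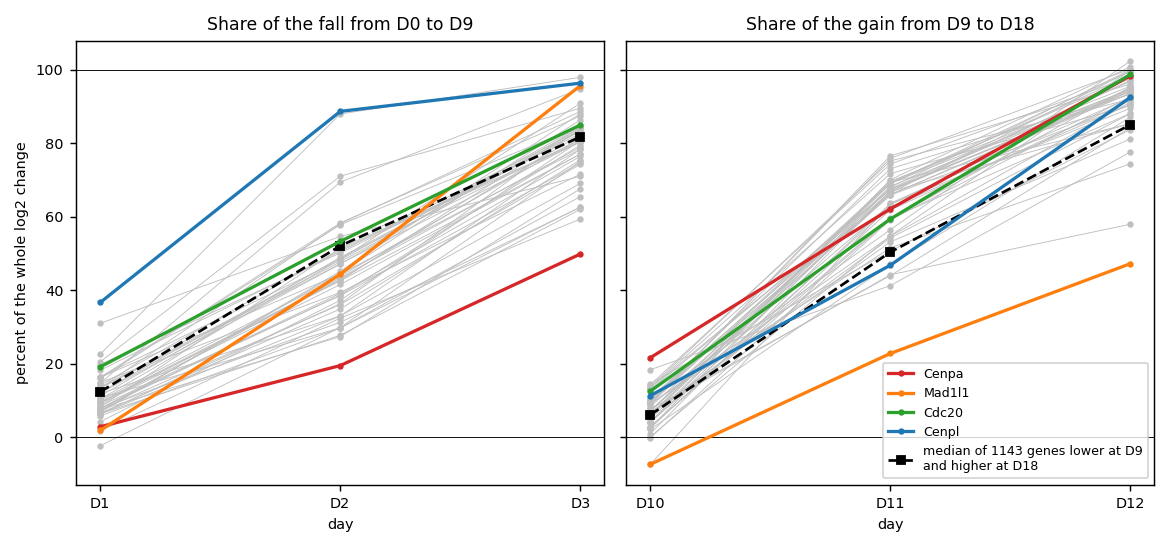
Percent of each gene's whole log2 change reached on a day, for the fall between D0 and D9 (left) and the gain between D9 and D18 (right); grey lines are the 48 genes and the dashed black line is the median of 1143 genes lower at D9 and higher at D18. Cenpa (red) lies lowest at D2 and D3 and highest at D10, Cenpl (blue) is highest at D1, Cdc20 (green) runs near the median of the 1143 in the fall, and Mad1l1 (orange) trails the gain.

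Other genes of the same machinery were taken from lists of further subunits and regulators. The Mis12, Knl1 and RZZ complexes join the inner kinetochore to Ndc80 and the checkpoint. Between D9 and D0, all 11 tested genes of these complexes and their checkpoint partners were lower (median log2 -4.19), from Kntc1 (-6.51, SE 0.20) to Mis12 (-0.47, SE 0.09). Of all rows, 37.0% were called lower and 34.4% higher. All 10 tested genes of the passenger complex, the shugoshins and centromere assembly were lower (median -5.28), from Sgo2, a protector of centromeric cohesion (-7.09), to Itgb3bp (-1.99). Hjurp, the chaperone that loads Cenpa, changed by log2 -6.10 (SE 0.13). All 16 tested regulators of mitotic entry and exit were lower (median -6.45), from Cdk1 (-7.43, SE 0.16) to Fzr1 (-0.94, SE 0.07).

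The other 3 lists had smaller medians, to be read beside the same 37.0% lower and 34.4% higher over all rows. Of 14 subunits of the anaphase-promoting complex, 3 were higher at D9, 9 were lower and 2 were not called (median -0.34), with Anapc15 (-1.13, SE 0.11) changed most and Anapc11 (0.09) least. Of 13 cohesin genes, 1 was higher, 8 were lower and 4 were not called (median -0.29). Esco2, which acetylates cohesin in S phase, changed by log2 -5.93 (SE 0.24), Esco1 differed by -0.04, and the loader subunit Mau2 was higher (0.82, SE 0.07). Of 11 DREAM and MuvB genes, 9 were lower, 1 was higher and 1 was not called (median -1.30). Mybl2, the activating partner of MuvB, changed by log2 -7.00 (SE 0.20), the pocket protein Rbl2, its repressive counterpart in DREAM, was higher (0.58, SE 0.16; limma, adjusted p = 0.0020), and E2f4 was not called (-0.03).

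At D18 against D9, where 33.6% of all rows were called higher and 32.5% lower, the 3 kinetochore, passenger and entry lists were higher in all their tested genes, 11, 10 and 16. The anaphase-promoting complex had 9 higher and 1 lower of 14, cohesin 10 higher and 1 lower of 13, and DREAM and MuvB 8 higher and 1 lower of 11. Rbl2 was the lower one in that last list (-0.63, SE 0.16). At D18 against D0, 4 of 11, 7 of 10 and 6 of 16 genes of the first 3 lists were higher and none lower, and cohesin had 9 of 13 higher, where 28.8% of all rows were called higher and 23.2% lower. E2f5 was lower at D18 than at D0 (-0.88, SE 0.14).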

How the data were processed

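Gene-level values of 36 poly(A) RNA-seq libraries (4 on each of 9 days) were used as deposited. Per the submitters' processing notes, edgeR 3.26.8 and the build Rnor_6.0 were used; which aligner and counter were run is not given in the sources used here. Values labelled CPM were treated as a signal: the authors scaled them by an effective library size, and the columns did not share 1 sum (the lowest was 868992). Every low value (up to 20 reads) was a whole number of reads plus 0.5, times the worth of 1 read (100% within 0.1 read), so whole reads could be recovered. A row without reads is therefore listed at the value of 0.5 read, as 28 to 287 rows per library were. The authors' TPM table, scaled per transcript length, was used for levels between genes and as an alternative. One D1 column carries no library number and was used by its day only.

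The filter kept rows that reached 1 CPM in 4 or more libraries (12492, all 55 genes among them). They were fitted together as log2(CPM + 0.5) with limma 3.58.1 (R 4.3.3) on the 9 days, with 27 residual degrees of freedom, an empirical Bayes spread with a trend on level and Benjamini-Hochberg adjustment over all rows. A gene was called at an adjusted p under 0.05. The design had taken the values for plain CPM and kept limma as its test. The quasi-likelihood test of edgeR 4.0.16 on the recovered reads was an alternative, and it called 4309 rows higher and 4636 lower at D9 against D0. Other alternatives were pseudocounts, median-of-ratios scaling, quantile normalization, the TPM table and no filter. A fit of only the days compared, a replicate block and leaving out each library of the days compared were also run. The fit was tested on simulated data. Genes named were the 4 markers Cenpf, Top2a, Cdca3 and Foxm1, the largest and smallest change per role, the highest and lowest called in D18 against D0, those not lower at D9, and the members of the pairs. Further genes, counts of 5 or fewer spelled out by name, and the leading genes of each step were chosen after their values were seen. The genes and lists were chosen with earlier results of these data known. No libraries were duplicates by a chi-square comparison of their reads.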

Additional observations from a re-analysis of the deposited data

Results flagged for a closer look

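In 180 groups of 4 libraries (the summed level and 19 named genes over 9 days), 9 held a library farther from the other 3 than Dixon's 95% limit, and chance gives about 1 in 20. D9 library 2 had the highest summed level of the 55 genes, 752 CPM, with the others at 673 to 678 CPM. It also held the highest Ncaph2 level at D9, 90 CPM, with the others at 70.7 to 74.0 CPM. Ncaph2 was likewise apart in D2 library 2, with 92.7 CPM and 85.5 to 85.8 CPM in the others.

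Cenpf stood apart in D3 library 2 (9.23 CPM, with 8.03 to 8.16 in the others) and in D10 library 2 (1.21 CPM, with 1.03 to 1.05). Cenpa had 26.6 CPM in D1 library 4 and 31.3 to 32.1 CPM in the others. Cenpw had 0.116 CPM in D9 library 4, which is 2 reads, and 0.027 to 0.0361 CPM in the others, which is 0 reads each. Cenpw also had 17.2 CPM in D18 library 2 and 21.6 to 22.2 CPM in the others. Aurkc had 5.05 CPM in D9 library 3 and 7.98 to 8.23 CPM in the others.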

How the results depend on the processing

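No named gene called in one of the 4 comparisons among D0, D9, D12 and D18 changed direction under any alternative run. Cenpv, not called at D9 against D0, was lower there in the TPM table (log2 -0.28; limma, adjusted p = 0.0182) and higher after quantile normalization (0.41; limma, adjusted p = 0.0012). Counts of genes called moved most at the small contrasts. With a pseudocount of 2, and with only the 2 days fitted, 6 genes were called at D10 against D9. Fits of only the 2 days called 46 at D18 against D0 and 47 at D1 against D0, and the TPM table called 37 at D18 against D12. Leaving out 1 library of the days compared gave 19 to 24 at D1 against D0 (20 without the unnumbered D1 library). It gave 7 to 12 at D12 against D0, 9 to 12 at D10 against D9 and 24 to 28 at D18 against D0. It gave 53 at D9 against D0, 54 at D18 against D9 and 23 to 25 pair differences. The median share of the fall was 9.00% at D1, 39.8% at D2 and 76.3% at D3 with a pseudocount of 0.1. In the TPM table it was 11.1% at D1 and 47.1% at D2, and the share of the gain at D12 was 90.9%. The cause of these moves was not tested.

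Same-numbered libraries did not deviate together (median correlation 0.013 over 136 pairs of libraries, 21 of them over 0.1, and -0.003 over 408 other pairs), so the numbers were not taken as pairs. With a replicate block the fit called 53 genes at D9 against D0, 54 at D18 against D9, 29 at D18 against D0, 11 at D12 against D0 and 22 at D1 against D0. Without D11 libraries 1 and 3, an alternative chosen after seeing the data, 50 genes were called at D11 against D10 and 48 at D12 against D11. In edgeR on recovered reads 1 of the 55 was higher and 52 lower at D9 against D0. Genes under 0.5 CPM are limited by depth: their fold changes are set by the added pseudocount.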
